A study of Mus musculus with 3 samples.

Results

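InjuredLOH is the cluster of loop of Henle (LOH) cells that the study's annotation of single cells of the dissected mouse renal medulla names as injured. Its members were taken as every cell with that cluster label and the cell type LOH in the deposited per-cell tables, which gave 8543 of 181257 cells. Of these, 117 cells came from healthy controls, 5726 from day 28 and 2700 from day 84 after reversible unilateral ureteric obstruction (R-UUO). All mice were male BALB/c mice. R-UUO mice had the left ureter clamped at 12 to 13 weeks of age, for an interval that the study's methods give as 5 to 7 days over all its strains, and lost the other kidney 10 days after the clamp was released, so the R-UUO groups also differ from healthy controls by nephrectomy and hold only the mice that survived it. The study's long-term renal function data in BALB/c mice followed 7 days of obstruction, and no separate interval was given for the sequenced mice. The age of the healthy controls was not given in the sources used here. Each pool held the dissected and frozen tissue of 3 to 4 mice, which cannot be told apart within it, and pools served as replicates (4 of healthy controls, 4 of day 28, 2 of day 84). Cells were fixed and measured with pairs of gene probes, and the barcode on the probes marks the pool.

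The loop of Henle is the hairpin of the nephron that dips into the medulla. Its thin limbs (the clusters DTL, ATL and IM-TL) run into the inner medulla and take part in the countercurrent exchange that concentrates urine, and its thick ascending limb (ISOM-TAL in the inner stripe, OSOM-TAL_a and OSOM-TAL_b in the outer stripe of the outer medulla) pumps salt and is rich in mitochondria. After injury, tubular cells can lose segment markers and switch on injury genes such as Lcn2, which encodes the secreted iron-siderophore binding protein NGAL. InjuredCD is the annotation's cluster of injured cells in the collecting duct (CD).

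The tables analysed here hold, for each cell, its UMI count (UMIs are the molecular tags that count captured RNA molecules), its number of detected genes, its mitochondrial percentage, its pool and its cluster. Lcn2 and the other genes were not analysed here, so the label was not checked against its marker, and InjuredLOH is used below as the annotation's name. The cluster was drawn by the authors from the expression of the same cells, so differences between InjuredLOH and other cells of a pool are given as descriptions, and only differences between conditions were tested. A median of 25.4% of droplet barcodes recurred between 2 pools of the same condition, against 2.78% between pools of different conditions, so condition and droplet run cannot be told apart. The median UMI count per cell of a pool ranged from 1139 to 1578 in controls and from 1566 to 3302 at day 28, and was 911 and 751 at day 84. Only 9 InjuredLOH cells came from pool Control 3, against 25 to 54 in the other control pools, and values for InjuredLOH in controls rest on these few cells. Shares are relative, so more InjuredLOH cells and fewer other LOH cells cannot be told apart.

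InjuredLOH was among the rarest clusters of the healthy medulla and among the most common in 5 of the 6 pools after R-UUO, day 84 pool 2 being the exception. In controls it held 0.342% of LOH cells in pool 1 (25 of 7314 cells, 95% Wilson interval 0.232% to 0.504%), 0.495% in pool 2 (54 of 10919), 0.148% in pool 3 (9 of 6066, interval 0.0781% to 0.282%) and 0.374% in pool 4 (29 of 7762). At day 28 it held 15.5% of LOH cells in pool 1 (780 of 5019), 23.5% in pool 2 (1205 of 5125), 24.3% in pool 3 (1491 of 6145) and 35.4% in pool 4 (2250 of 6363). At day 84 it held 28.4% in pool 1 (2098 of 7381) and 6.39% in pool 2 (602 of 9416, interval 5.92% to 6.91%). All 6 pools after R-UUO lay above all control pools, and the 2 day 84 pools lay far apart, pool 2 below every day 28 pool and pool 1 within their range. The intervals cover counting error only. By number of cells, InjuredLOH stood at ranks 19 to 24 of the 25 clusters in the control pools, at ranks 6, 3, 3 and 2 in day 28 pools 1 to 4, and at ranks 1 and 17 in day 84 pools 1 and 2.

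The share of LOH cells rose from 0.340% ± 0.143 (SD, n = 4 pools) to 24.7% ± 8.15 (SD, n = 4 pools) at day 28, and it was 17.4% ± 15.6 over the 2 pools of day 84. The log2 odds of being InjuredLOH rose by 6.62 between controls and day 28 (standard error 0.59, limma adjusted p = 9.3e-06). Between controls and day 84 they rose by 5.69 (standard error 0.72, limma adjusted p = 1.8e-04). An exact two-sided permutation test of mean log2 odds gave p = 0.0286 at day 28 and p = 0.0667 at day 84, the smallest values that 4 pools against 4 and 4 pools against 2 allow. Of the 7 LOH clusters, 85.7% passed an adjusted p of 0.05 at day 28 and 71.4% at day 84, and the shares of one pool are tied, as they sum to the whole. Of the other 6, ATL fell by 2.59 in log2 odds at day 28, IM-TL fell by 1.92, DTL fell by 0.91, OSOM-TAL_a rose by 1.02 and OSOM-TAL_b rose by 3.65, while ISOM-TAL did not pass (-0.13). At day 84 ATL fell by 1.55, IM-TL fell by 1.43, DTL fell by 0.59 and OSOM-TAL_b rose by 4.56, while ISOM-TAL (-0.72) and OSOM-TAL_a (-0.07) did not pass. The difference between day 84 and day 28 was -0.94 (95% interval -2.58 to 0.70, limma adjusted p = 0.32), in a comparison where 28.6% of the LOH clusters passed (ATL, which rose by 1.05, and OSOM-TAL_a, which fell by 1.09). Without day 84 pool 2 that difference was 0.33, with the opposite sign (limma adjusted p = 0.65). As a share of all cells, InjuredLOH went from 0.139% ± 0.0655 in controls to 9.51% ± 3.55 at day 28 and 6.58% ± 5.71 at day 84. The log2 odds rose by 6.27 (limma adjusted p = 1.9e-05) at day 28, when 88.0% of the 25 clusters passed. At day 84 they rose by 5.43 (limma adjusted p = 3.1e-04), when 48.0% passed.

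**Figure D1:**
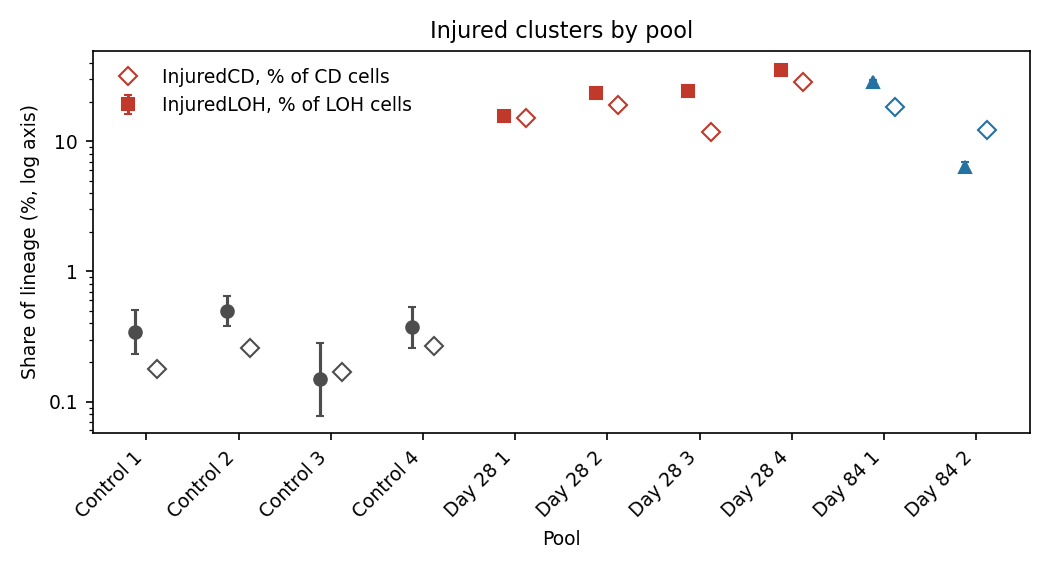
Share of InjuredLOH among LOH cells (filled symbols, bars are 95% Wilson intervals) and of InjuredCD among CD cells (open diamonds) in each of the 10 pools, in percent on a log axis. All control pools sit below 0.5% for both clusters, and the pools after R-UUO sit between 6.39% and 35.4% for InjuredLOH.

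The number of InjuredLOH cells was then set against each of the 24 other clusters of the same pool. At day 28 the ratio rose against 21 clusters, or 87.5% of those tested, and at day 84 against 17, or 70.8%. These ratios share the InjuredLOH count and are not independent. The 3 largest increases at both times were against the endothelial cluster EndoVR/papilla, the stromal cluster Fib and the collecting duct cluster deepIM-CD. Against EndoVR/papilla the log2 ratio rose by 9.20 at day 28 (standard error 1.15) and by 7.86 at day 84 (standard error 1.41). Against Fib it rose by 8.61 and 7.17, and against deepIM-CD by 8.56 and 6.67, with limma adjusted p of at most 1.8e-04 for these 3 clusters at both times. Their own shares of all cells fell at day 28, by 3.12 in log2 odds for EndoVR/papilla, 2.55 for Fib and 2.56 for deepIM-CD. Day 28 pool 4 held only 8 EndoVR/papilla cells. Its ratio was 281 InjuredLOH cells per EndoVR/papilla cell, against 5.50 to 16.5 in the other day 28 pools.

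Among LOH clusters at day 28 the ratio rose most against ATL, the ascending thin limb. There were 0.00988, 0.0193, 0.00564 and 0.0115 InjuredLOH cells per ATL cell in control pools 1 to 4, 2.20, 4.07, 2.53 and 7.76 in day 28 pools 1 to 4, and 2.40 and 0.479 in day 84 pools 1 and 2. InjuredLOH cells thus outnumbered ATL cells in 5 of the 6 pools after R-UUO, day 84 pool 2 being the exception. The log2 ratio to ATL rose by 8.40 at day 28 and by 6.63 at day 84, that to IM-TL by 7.94 and 6.66, and that to DTL by 6.91 and 5.84. Against the thick limb it rose by 6.33 and 6.07 for ISOM-TAL and by 5.36 and 5.46 for OSOM-TAL_a. Against OSOM-TAL_b, whose own share of LOH cells rose after R-UUO, the change was 2.76 at day 28 (limma adjusted p = 0.0061) and 1.21 at day 84 (limma adjusted p = 0.26).

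The ratio to InjuredCD did not pass the test in any comparison. InjuredLOH cells per InjuredCD cell were 2.08, 3.18, 1.125 and 1.53 in control pools 1 to 4, 2.31, 3.05, 3.74 and 2.78 in day 28 pools 1 to 4, and 1.79 and 0.695 in day 84 pools 1 and 2. The control and day 28 pools overlap, and day 84 pool 2 is the 1 pool of 10 with fewer InjuredLOH than InjuredCD cells. The log2 change was 0.69 at day 28 (95% interval -0.52 to 1.91, limma adjusted p = 0.26) and -0.70 at day 84 (interval -2.19 to 0.79, limma adjusted p = 0.33), intervals wide enough that the 2 injured clusters are not shown to have changed alike. The day 84 change was -1.38 without day 84 pool 1 (limma adjusted p = 0.12) and -0.02 without day 84 pool 2 (limma adjusted p = 0.98). From day 28 to day 84 the ratio changed by -1.39 (interval -2.88 to 0.10, limma adjusted p = 0.31), and without day 84 pool 1 by -2.07 (limma adjusted p = 0.047). At day 28 the proximal tubule clusters PT-S1S2 (0.22, standard error 1.04) and PT-S2 (0.93, standard error 1.35) did not pass either, and the ratio to Immune cells rose by 1.67 (standard error 0.60, limma adjusted p = 0.020). At day 84 the 7 clusters that did not pass were InjuredCD, OSOM-TAL_b, Immune (1.38, limma adjusted p = 0.11) and the 4 proximal tubule clusters, which are named as a group because of their values.

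Between day 84 and day 28, 1 of 24 ratios passed (4.17%, 3 at an unadjusted p under 0.05). It was the ratio to the endothelial cluster Endo_b, which fell by 2.82 (standard error 0.67, limma adjusted p = 0.028), from 24.4, 15.6, 27.1 and 15.2 InjuredLOH cells per Endo_b cell in day 28 pools 1 to 4 to 4.37 and 1.78 in day 84 pools 1 and 2. The ratios to Uro and to the collecting duct cluster IM-CD changed by -2.11 (limma adjusted p = 0.16) and -2.20 (limma adjusted p = 0.31). The count of passing ratios depended on single pools, as 11 passed without day 84 pool 1 and none without control pools 1 or 4, day 28 pools 1, 2 or 3, or day 84 pool 2.

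The pools differed in their numbers of cells from outside the inner medulla. Proximal tubule cells, which lie outside the inner medulla, made up 22.8%, 21.2%, 12.98% and 2.95% of all cells in day 28 pools 1 to 4, in which InjuredLOH held 15.5%, 23.5%, 24.3% and 35.4% of LOH cells. At day 28 the pool with the most proximal tubule cells thus had the lowest share of InjuredLOH, and the pool with the fewest had the highest. ISOM-TAL cells made up 13.7%, 10.1%, 8.14% and 3.74% of LOH cells in the same pools, again in the reverse order of InjuredLOH. At day 84, pool 1 had 3.60% proximal tubule cells and 3.74% ISOM-TAL, and pool 2 had 7.64% and 8.19%. The order within each time point was the same, but day 84 pool 2 had less InjuredLOH than day 28 pools 1 to 3, which had more proximal tubule cells. ISOM-TAL and InjuredLOH are shares of one total, and the part of the dissection in the spread of InjuredLOH was not tested. With the 3 thick limb clusters left out, InjuredLOH rose by 7.54 in log2 odds at day 28 (limma adjusted p = 1.1e-09). The rise at day 84 was then 6.27 (limma adjusted p = 1.7e-07).

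**Figure D2:**
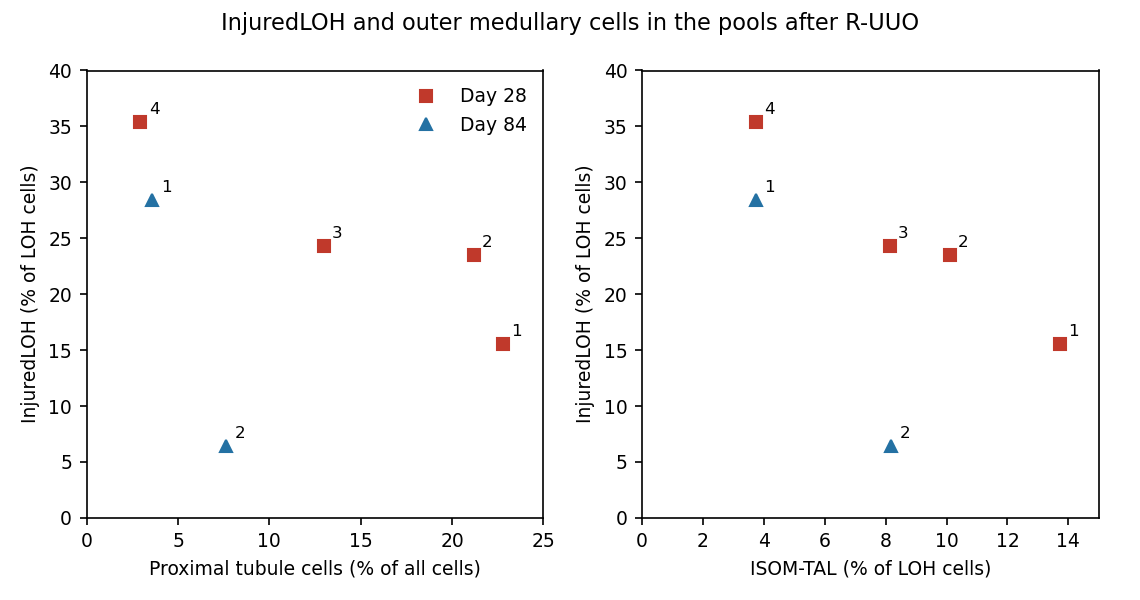
Share of InjuredLOH among LOH cells (percent) in the 6 pools after R-UUO against the share of proximal tubule cells among all cells (left, percent) and the share of ISOM-TAL among LOH cells (right, percent), with pool numbers beside the points. Within each time point the share of InjuredLOH is highest in the pool with the fewest proximal tubule cells (35.4% in day 28 pool 4 and 28.4% in day 84 pool 1).

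Median UMIs per cell differed between pools, so the share of InjuredLOH was also compared among LOH cells with like numbers of UMIs. In cells with 500 to under 1000 UMIs it was 0.302% ± 0.0545 (SD, n = 4) in controls, 20.2% ± 2.75 (SD, n = 4) at day 28, and 18.3% and 5.25% in the day 84 pools. In cells with 1000 to under 2000 UMIs it was 0.270% ± 0.0920 in controls, 21.2% ± 8.63 at day 28, and 30.2% and 9.60% in the day 84 pools. In cells with 4000 UMIs or more it was 0.287% ± 0.380 in controls, 40.2% ± 17.8 at day 28, and 68.3% and 15.9% in the day 84 pools. No InjuredLOH cell was among the 398 such cells of Control 1 or the 410 of Control 3, which allows shares of up to 0.754% and 0.732%. The increase thus appeared in every window of UMIs at day 28. All 5 windows passed at day 28 (100%), with rises of 3.43 to 7.83 in log2 odds and limma adjusted p of at most 9.0e-04. At day 84, 4 of 5 windows passed (80%), the exception being cells under 500 UMIs (1.28, limma adjusted p = 0.22), of which the control pools held only 83 LOH cells, 2 of them InjuredLOH. None of the 5 windows (0.0%) differed between day 84 and day 28 by limma (1 at an unadjusted p under 0.05).

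After R-UUO, InjuredLOH cells were concentrated among the LOH cells with the most UMIs. The LOH cells of each pool were ranked by UMIs and cut into 5 quintiles of equal size. At day 28 the lowest 4 quintiles held mean shares of 19.5%, 21.2%, 19.7% and 22.5%, and the highest quintile held 40.5% ± 12.9 (SD, n = 4). In the highest quintile the 4 day 28 pools held 27.7%, 40.9%, 35.3% and 58.0%, each above the pool's other quintiles. Day 84 pool 1 rose from 17.9% in the lowest quintile to 56.1% in the highest, and day 84 pool 2 from 3.88% to 11.2%. In the controls the quintiles held between 0% and 0.962%, and only Control 1 had its highest share in the highest quintile (0.547%). Among the 5% of LOH cells with the most UMIs, InjuredLOH held 39.0%, 51.4%, 36.7% and 74.9% in day 28 pools 1 to 4 and 73.0% and 16.1% in day 84 pools 1 and 2. In the control pools it held 0 of 366, 4 of 546, 0 of 304 and 2 of 389 such cells.

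**Figure D3:**
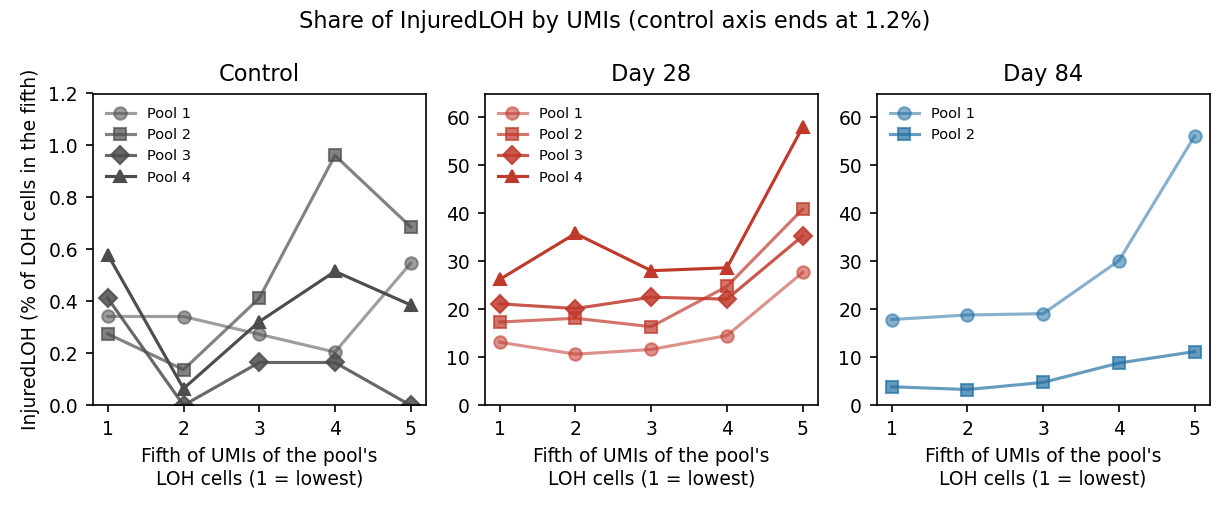
Share of InjuredLOH (percent) among the LOH cells of each pool, cut into quintiles by UMIs per cell from the lowest (1) to the highest (5), with 1 line per pool. The control axis has a smaller scale, and all 6 pools after R-UUO reach their highest share in the last quintile.

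The UMIs of InjuredLOH cells were high for a LOH cluster and spread widely. Median UMIs per InjuredLOH cell were 1197, 2190.5, 704 and 1148 in control pools 1 to 4, 4220, 3098, 2297 and 2110.5 in day 28 pools 1 to 4, and 1412.5 and 910 in day 84 pools 1 and 2. The other LOH cells of the same pools had medians of 1117, 1598, 1149 and 1130, then 3341, 2265, 2028 and 1770, then 817 and 699. InjuredLOH was above the other LOH cells in all 6 pools after R-UUO and in 3 of 4 control pools, Control 3 with its 9 cells being the exception. Within a pool, the median was 1.26, 1.37, 1.13 and 1.19 times that of the other LOH cells in day 28 pools 1 to 4 and 1.73 and 1.30 times in day 84 pools 1 and 2. InjuredLOH held rank 2 or 3 of the 7 LOH clusters by median UMIs in all 6 pools after R-UUO, below ISOM-TAL in each. InjuredCD had higher median UMIs than InjuredLOH in all 6 of these pools and in 3 of 4 control pools, and the gap of InjuredLOH to it was -0.43 log2 UMIs on average at day 28 and -0.74 at day 84.

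**Figure D4:**
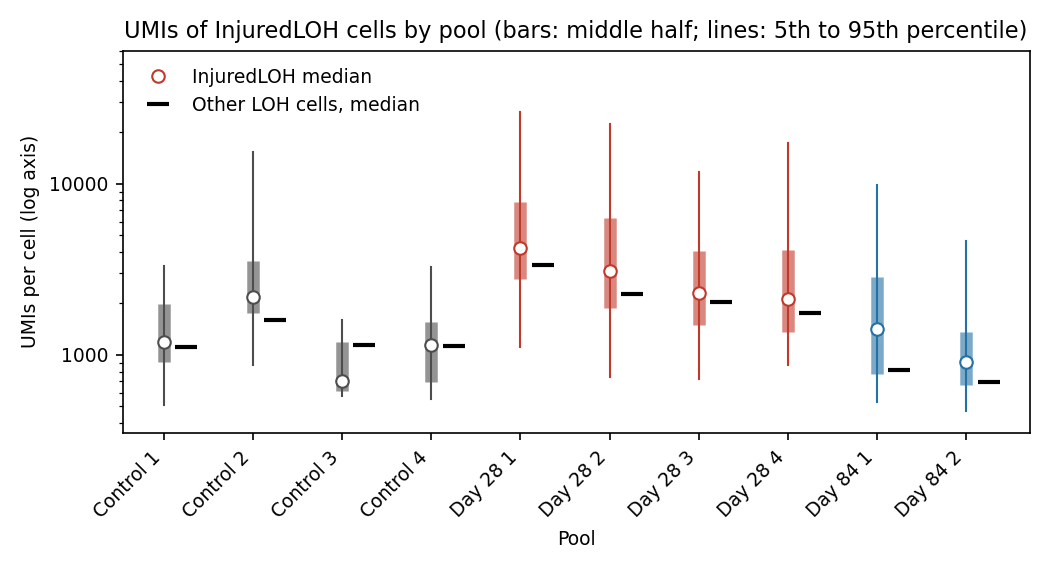
UMIs per InjuredLOH cell in each pool on a log axis, with the median (open circle), the 25th to 75th percentile (bar) and the 5th to 95th percentile (line), beside the median of the other LOH cells of the pool (black dash). The InjuredLOH median lies above the dash in every pool but Control 3, and the 95th percentile reaches 26470 UMIs in day 28 pool 1.

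By the SD of log2 UMIs, the spread over InjuredLOH cells was the widest of the 7 LOH clusters in 4 of 4 day 28 pools and 2 of 2 day 84 pools, and in 1 of 4 control pools, though in day 84 pool 2 it was nearly that of ISOM-TAL (1.007 against 1.005). The SD of log2 UMIs was 1.37, 1.45, 1.21 and 1.34 in day 28 pools 1 to 4, against 0.97, 1.08, 1.06 and 0.91 over all other LOH cells pooled. It was 1.32 and 1.01 in day 84 pools 1 and 2, against 0.84 and 0.87. The 75th percentile was 2.82, 3.39, 2.73 and 3.02 times the 25th in the day 28 pools, and 3.68 and 2.05 times in the day 84 pools. By this fold InjuredLOH was not the widest in day 28 pool 3, where ATL had 2.97, or in day 84 pool 2, where ISOM-TAL had 2.21. The SD of log2 UMIs of OSOM-TAL_a lay between 0.40 and 0.55 in every pool. InjuredCD at day 28 had SDs of 1.41, 1.49, 1.24 and 1.40 in pools 1 to 4, each above InjuredLOH, and at day 84 it had 1.26 in pool 1 and 1.22 in pool 2, the latter above InjuredLOH.

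Whether the gap in UMIs between InjuredLOH and its neighbours differed between conditions was tested on the pools' gaps in median log2 UMIs, against 8 references (the 6 other LOH clusters, all other LOH cells and InjuredCD). The 8 share the InjuredLOH value and are not independent, yet limma pooled their spread, so p-values of these gaps can be too small. Against IM-TL, thin limb cells of the inner medulla, the gap was 0.06, 0.57, -0.58 and -0.01 in control pools 1 to 4, 0.84, 0.94, 0.74 and 1.01 in day 28 pools 1 to 4, and 0.96 and 0.64 in day 84 pools 1 and 2. Every pool after R-UUO lay above every control pool. The gap was wider at day 28 by 0.87 (standard error 0.26, limma adjusted p = 0.012), the 1 of 8 references that passed (12.5%). This call was lost without day 28 pool 2 (0.85, limma adjusted p = 0.051) or pool 4 (0.83, limma adjusted p = 0.058). With cells alone in their droplet, where Control 3 has no InjuredLOH cell and drops out, it was wider by 0.56. Against all other LOH cells the gap was -0.03 ± 0.49 (SD, n = 4) in controls, 0.31 ± 0.12 at day 28 (SD, n = 4) and 0.59 ± 0.29 over the 2 pools of day 84, and the differences of 0.34 and 0.62 did not pass (limma adjusted p = 0.27 and 0.13). The day 28 difference was 0.11 without Control 3, 0.50 without Control 2 and 0.03 with cells alone in their droplet. Over all alternatives run, the mean gap itself ranged from 0.20 to 0.47 within day 28 and from 0.26 to 0.79 within day 84. None of the 8 passed at day 84 (0.0% by limma, 1 at an unadjusted p under 0.05). Without Control 2, in which InjuredLOH had the highest UMIs of the controls, 4 of 8 references passed at day 28.

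Detected genes followed the UMIs. Median detected genes per InjuredLOH cell were 1003, 1539, 615 and 891 in control pools 1 to 4, 2539.5, 2041, 1583 and 1508.5 in day 28 pools 1 to 4, and 1108 and 748 in day 84 pools 1 and 2. The other LOH cells had 949, 1164, 904 and 890, then 2007, 1504, 1373 and 1262, then 680 and 568. InjuredLOH held rank 2 of the 7 LOH clusters in all 6 pools after R-UUO. In log2 detected genes, the gap to IM-TL was wider at day 28 than in controls by 0.74 (standard error 0.21, limma adjusted p = 0.0069), again the 1 of 8 that passed (12.5%), and with cells alone in their droplet by 0.44. None passed at day 84 (0.0% by limma, 4 at an unadjusted p under 0.05). Without Control 2, 7 of 8 passed at day 28.

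At matched UMIs, InjuredLOH cells still had more detected genes than the other LOH cells of their pool. Cells were compared within bins of log2 UMIs, in which 99.5% to 100% of the InjuredLOH cells of a pool found a match. The gap in log2 detected genes to all other LOH cells was 0.05, 0.05, 0.03 and 0.02 in control pools 1 to 4, 0.13, 0.14, 0.10 and 0.07 in day 28 pools 1 to 4, and 0.08 and 0.06 in day 84 pools 1 and 2. It was above 0 in 10 of 10 pools, and all pools after R-UUO lay above all control pools. As a mean this is 2.73% more genes in controls, 8.02% at day 28 and 4.94% at day 84. By cluster, the day 28 mean was 18.1% against ISOM-TAL, 8.97% against OSOM-TAL_a and 5.57% against OSOM-TAL_b. Against the thin limbs it was smaller for DTL (4.20%) and IM-TL (3.93%), and 6.46% for ATL. The gap to all other LOH cells was wider at day 28 by 0.07 (standard error 0.02, limma adjusted p = 0.011). For day 84 the difference from controls was 0.03 (limma adjusted p = 0.45). Against ATL it was wider at day 28 by 0.08 (standard error 0.02, limma adjusted p = 0.011), and these were the 2 of 8 references that passed (25%). The difference to all other LOH cells did not pass with a straight line in place of bins (0.04, limma adjusted p = 0.24), nor without day 28 pool 1 (0.07, limma adjusted p = 0.054), and neither of the 2 references passed without Control 4 (limma adjusted p = 0.054). The difference to ATL did not pass with the line either (0.06, limma adjusted p = 0.13). With bins, the day 28 differences to DTL (0.03, limma adjusted p = 0.23) and IM-TL (0.04, limma adjusted p = 0.12) did not pass.

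The gap at matched UMIs was widest against ISOM-TAL at day 28. It was 0.24 ± 0.06 (SD, n = 4) at day 28, 0.17 ± 0.04 (SD, n = 4) in controls and 0.08 ± 0.03 (SD, n = 2) at day 84. From day 28 to day 84 it fell by 0.16 (standard error 0.04, limma adjusted p = 0.0059), 1 of 8 references (12.5%), and it did not pass without day 84 pool 2 (limma adjusted p = 0.12). Against InjuredCD the gap was 0.07 ± 0.05 at day 28 (SD, n = 4) and 0.06 ± 0.02 over the 2 pools of day 84, and it was not shown to differ from the 0.01 ± 0.08 (SD, n = 4) of the controls (limma adjusted p = 0.13 and 0.45). No reference passed for day 84 against controls (0.0% by limma, 2 at an unadjusted p under 0.05).

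**Figure D5:**
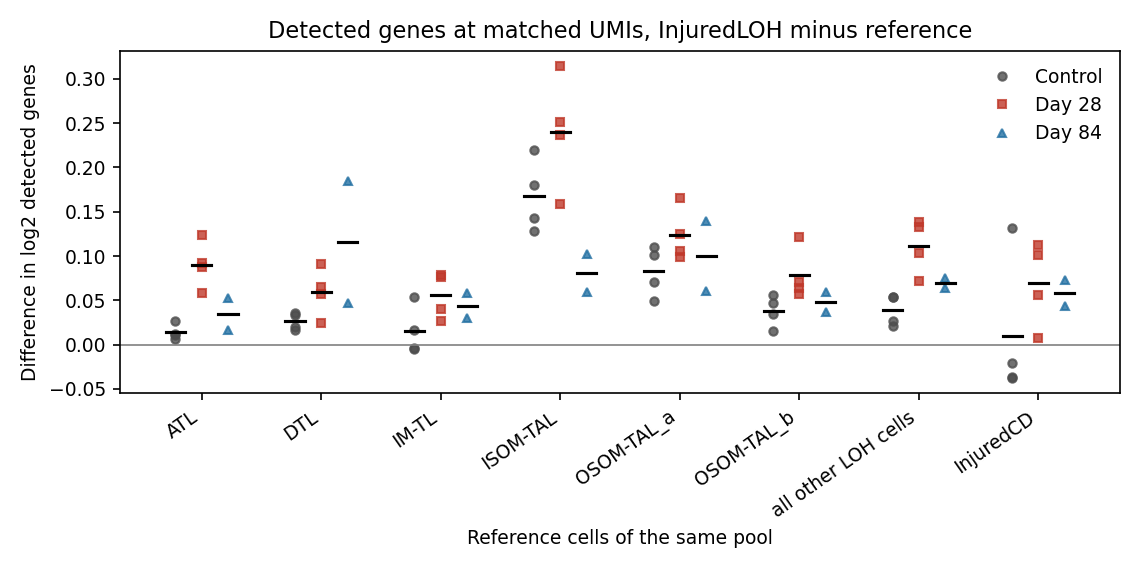
Difference in log2 detected genes between InjuredLOH cells and reference cells of the same pool at matched UMIs, with 1 point per pool and the mean of each condition as a black line. Against all other LOH cells, the day 28 pools lie between 0.07 and 0.14 and the control pools between 0.02 and 0.05.

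The mitochondrial percentage of InjuredLOH was low after R-UUO in absolute terms but high among LOH cells other than ISOM-TAL. Its mean was 2.20%, 3.22%, 0.992% and 2.71% in control pools 1 to 4, 0.231%, 0.0445%, 0.119% and 0.179% in day 28 pools 1 to 4, and 0.210% and 0.000395% in day 84 pools 1 and 2. LOH cells other than InjuredLOH and ISOM-TAL had means of 1.26%, 1.92%, 1.26% and 1.37%, then 0.154%, 0.0182%, 0.0137% and 0.0139%, then 0.0703% and 0.000194%. InjuredLOH was the higher of the 2 in all 4 day 28 pools, in day 84 pool 1 and in all control pools but Control 3, and day 84 pool 2 was too near 0 to compare. Single thin limb clusters could be higher, as DTL (0.328%) and IM-TL (0.232%) were in day 28 pool 1. InjuredLOH lay below ISOM-TAL in all 10 pools, by 2.50 ± 0.89 percentage points (SD, n = 4) at day 28.

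At day 28, 29.2%, 52.0%, 59.4% and 57.2% of InjuredLOH cells in pools 1 to 4 had no mitochondrial UMI, against 53.1%, 84.8%, 91.2% and 91.9% of the LOH cells other than InjuredLOH and ISOM-TAL. At day 84 the shares were 38.8% against 71.4% in pool 1 and 99.5% against 99.9% in pool 2. None of the 117 control InjuredLOH cells was without one, which allows up to 2.56%. Within UMI windows, InjuredLOH had the lower share without one in all 4 day 28 pools and day 84 pool 1 in each of the 3 windows from 1000 UMIs up. With 500 to under 1000 UMIs the shares lay closer in some pools, at 29.6% against 23.1% in day 28 pool 1, where InjuredLOH had the higher share, 88.8% against 92.4% in day 28 pool 4 and 70.8% against 74.0% in day 84 pool 1. Under 500 UMIs, where the day 28 pools held 6 to 10 InjuredLOH cells each, InjuredLOH had the higher share in day 28 pools 1 and 4 and in day 84 pool 1. With 4000 UMIs or more, 25.4%, 33.6%, 53.2% and 20.1% of InjuredLOH cells in day 28 pools 1 to 4 had none, against 50.1%, 77.3%, 87.9% and 71.4%, and in day 84 pool 1, with 11.7% against 74.2%. In day 84 pool 2 nearly all LOH cells outside ISOM-TAL were at 0, which left little room for a difference. With 2000 to under 4000 UMIs, 96.5% of its 57 InjuredLOH cells had none, against 100%. With 500 to under 1000 UMIs the shares were 100% against 99.8%.

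In percentage points, the gap between InjuredLOH and 4 of 8 references (50%) was smaller at day 28 than in controls, namely ATL (by -0.98), OSOM-TAL_a (-0.89), OSOM-TAL_b (-1.05) and InjuredCD (-0.92), each with a limma adjusted p of 0.048. The mean of InjuredLOH itself was between 0.0445 and 0.231% in the day 28 pools, so a positive gap of more than 0.231 points could not occur there, and nothing particular to InjuredLOH is read from these calls. As a ratio the order was the other way for OSOM-TAL_b, since the InjuredLOH mean was 1.05 to 3.15 times that of OSOM-TAL_b in the control pools and 5.09 to 54.0 times in the day 28 pools. For the other 3 references the ratios of control and day 28 pools overlap, at 0.932 to 2.52 and 1.12 to 4.84 for ATL, 1.13 to 2.25 and 1.57 to 144.5 for OSOM-TAL_a, and 0.848 to 3.13 and 1.36 to 4.98 for InjuredCD. The highest ratios divide by means near 0, so their size is not read. OSOM-TAL_a had a mean of 0.00124% in day 28 pool 4, and OSOM-TAL_b had 0.00326% and 0.00331% in day 28 pools 3 and 4. Mean mitochondrial percentages of all 7 LOH clusters were lower in every day 28 pool than in every control pool. All 4 calls were lost when any 1 pool other than Control 3 was left out, and under a stricter cell filter (500 genes or more, mitochondrial counts of 5% or less), while 7 of 8 references passed without Control 3 and its 9 InjuredLOH cells. The gap to all other LOH cells, ISOM-TAL included, differed from controls by -0.75 at day 28 and by -0.66 at day 84 and did not pass (limma adjusted p = 0.075 and 0.22). None passed at day 84 (0.0% by limma, 2 at an unadjusted p under 0.05).

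Pools of one condition shared droplets, so the InjuredLOH cells were compared with other LOH cells for sharing. A droplet barcode that another pool of the condition also held was found in 50.5%, 48.8%, 48.7% and 46.9% of InjuredLOH cells in day 28 pools 1 to 4, against 49.4%, 49.1%, 46.0% and 47.5% of the other LOH cells. At day 84 the shares were 27.3% against 27.3% in pool 1 and 23.6% against 22.5% in pool 2. Where a day 28 droplet was shared, another pool's InjuredLOH cell was in it for 11.7%, 12.4%, 11.7% and 10.5% of InjuredLOH cells in pools 1 to 4, against 12.6%, 12.7%, 11.7% and 9.97% of other LOH cells. InjuredLOH cells that shared a droplet had median UMIs of 4407.5, 3074, 2257 and 2173 in day 28 pools 1 to 4, and those alone had 4112, 3159, 2313 and 2091.5. In control pools 1 to 4, 13 of 25, 28 of 54, 9 of 9 and 12 of 29 InjuredLOH cells shared a droplet. These few cells make 52.0%, 51.9%, 100% and 41.4%, against 58.2%, 53.3%, 60.5% and 58.2% of the other LOH cells. With the cells alone in their droplet, an alternative added after the data were seen, the change in the share of LOH cells was 7.13 at day 28 (limma adjusted p = 3.5e-04) and 6.20 at day 84 (limma adjusted p = 0.0035). Across all pools, 350 InjuredLOH cells carried a full barcode (droplet and probe) that a cell of another pool also carried, out of 6925 such cells in the series.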

How the data were processed

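Cells of the dissected medulla of the 3 conditions were measured with a fixed RNA probe assay. The submitters' processing notes name Cell Ranger 7.1 and build mm10. The authors left out cells under 300 detected genes or over 10% mitochondrial counts, ran SoupX against ambient RNA, took out doublets (scDblFinder, and cells of mixed signature), and clustered and named cells in Seurat. The deposited tables give, per cell, UMIs as estimated counts, detected genes as counts, and the deposited mitochondrial value as a percent of UMIs. UMIs of InjuredLOH cells were fractional in all 25 cells of Control 1 and whole in the other 9 pools. Whether the ambient correction was written out alike for all pools is not given in the sources used here. Gene-level values were not analysed here. No further cell filter was applied.

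From these tables, cells were counted by pool and cluster. Shares were tested as log2 odds and ratios as log2 ratios, with 0.5 cells added to both parts, with limma 3.58.1 in R 4.3.3 (lmFit, eBayes, two-sided), over 10 pools and 3 conditions in one fit, adjusted by Benjamini-Hochberg over the 7 LOH clusters, the 25 clusters, the 24 ratios or the 5 UMI windows, with a threshold of 0.05. Gaps were medians of log2 UMIs or detected genes, or mean mitochondrial percentages, of InjuredLOH minus those of 8 references, adjusted over the 8. For the UMI, gene and mitochondrial gaps, limma's moderated spread, and so the standard error, was the same for all references. It was pooled over the 8 references, which are not independent, so p-values of these gaps can be too small. Matched gaps used bins of log2 UMIs 0.25 wide. Pools hold separate mice, and p-values rest on the spread between pools. Exact permutation tests used scipy 1.17.1 with Python 3.11.15, numpy 2.4.6 and pandas 2.3.3, and plots used matplotlib 3.10.9. The fit of shares was tried on simulated cluster counts, and the UMI and gene gaps were computed on simulated cells. No other limma test was simulated. UMIs per cell differed between pools, so windows, quintiles and bins of UMIs were used to compare like cells.

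InjuredLOH, the other 6 LOH clusters and InjuredCD were named first, and of the others at most 3 with the largest and 3 with the smallest change per comparison. The proximal tubule clusters at day 84 were named as a group beyond this rule, after their values were seen. Members, lists and tests were chosen with earlier results of these data known. Alternatives were a stricter cell filter (500 genes or more, mitochondrial counts of 5% or less), dropping each pool's top 5% of cells by UMIs, other denominators, added counts, summaries, bins or a line, each pool left out in turn, and cells alone in their droplet.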

Additional observations from a re-analysis of the deposited data

Results flagged for a closer look

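A single pool stood apart from its group in 3 of 92 groups of 4 pools, and by chance about 1 in 20 (4.6 groups) would do so. All 3 were Control 3, which holds 9 InjuredLOH cells. Its gap to ISOM-TAL was -2.12 log2 UMIs, against -1.24 to -1.07 in the other control pools. Its gap to InjuredCD in detected genes at matched UMIs was 0.13 (log2), against -0.04 to -0.02. Its mitochondrial gap to OSOM-TAL_a was 0.11 percentage points, against 1.22 to 1.35.

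The gap between InjuredLOH and a reference cluster differed between conditions by a limma test in 9 cases. At day 28 against controls, the gap to IM-TL was wider by 0.87 in log2 UMIs and by 0.74 in log2 detected genes. At matched UMIs, the gap in log2 detected genes was wider by 0.0760 to ATL and by 0.0725 to all other LOH cells, and from day 28 to day 84 that to ISOM-TAL changed by -0.16. The mitochondrial gap changed at day 28 by -0.98 percentage points to ATL, -0.89 to OSOM-TAL_a, -1.05 to OSOM-TAL_b and -0.92 to InjuredCD. With InjuredLOH means of at most 0.231% at day 28, a gap above 0.231 points could not occur there, so these 4 changes in points show nothing particular to InjuredLOH. The part of the few control cells and of the droplet run in these differences was not tested.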

How the results depend on the processing

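Of 556 alternative values of 42 results, 449 kept direction and side of the threshold, 56 became weaker, 19 stronger, 29 moved and 3 reversed. No paired analysis was possible because pool numbers name separate pools of mice within each condition and the columns carry no link between conditions. The rise in the share of LOH cells kept its direction and its call at day 28 under every alternative run, and from 6.28 to 6.88 with 1 pool left out. At day 84 it ranged from 4.42 to 6.96 with 1 pool left out, and the exact permutation test of 5.69 gave p = 0.0667. The day 84 minus day 28 difference ranged from -2.21 to 0.33 with 1 pool left out (all cells -1.94 to 0.25, reversed at 0.25 without day 84 pool 2), and among InjuredLOH, ATL and IM-TL cells only it was -1.52 (limma adjusted p = 0.048). Calls of ratios between day 84 and day 28 ranged from 0 to 11 with 1 pool left out.

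With 1 pool left out, UMI gap calls at day 28 ranged from 0 to 4, detected-gene gap calls from 1 to 7, matched gap calls from 0 to 4 and mitochondrial gap calls from 0 to 7. The difference from controls in the gap to all other LOH cells ranged from 0.11 to 0.50 and from 0.39 to 0.82 for UMIs at day 28 and day 84, from 0.15 to 0.47 and from 0.39 to 0.72 for genes at day 28 and day 84, from 0.064 to 0.086 for matched genes at day 28, and from -1.10 to -0.55 and from -1.01 to -0.47 percentage points for mitochondria at day 28 and day 84. Means in place of medians gave 2 UMI gap and 2 gene gap calls at day 28. Matched gap calls at day 28 were 4 with bins 0.5 wide and 1 with a line, under which the difference from controls in the gap to all other LOH cells was 0.0424. With cells alone in their droplet, chosen after seeing the data, matched calls were 5. The difference from controls in the gap to all other LOH cells was then 0.03 and 0.30 for UMIs and 0.05 and 0.29 for genes at day 28 and day 84. For mitochondria it was -0.99 at day 28 and -0.89 at day 84, both past the threshold, against -0.75 and -0.66 with all cells, which were not. Control 3 has no InjuredLOH cell alone in its droplet and so gives no gap there. The mitochondrial difference from controls at day 28 was -0.95 within bins of UMIs and reversed to 0.0060 with summed UMIs, and mitochondrial calls were 0 with summed UMIs and 0 with the stricter cell filter. The cause was not tested for any of these changes. The controls hold 117 InjuredLOH cells in all, which limits every comparison with them.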
